A study of Mus musculus with 4 samples.

Results

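Fibroblast-rich stroma was compared between wounded oral mucosa and wounded facial skin of wildtype mice at postoperative day 4, in 100 of the 3530 tissue spots of the series. Gene expression was measured with 10x Visium, which counts transcripts by their unique molecular identifiers (UMIs) at barcoded positions, the spots, under a tissue section. Flash-frozen oral mucosa and facial skin were each sectioned unwounded and at day 4, with 1 section in each of the 4 groups. Each spot covers a patch of tissue in which cells of several types may lie, or parts of them. The labels give neither the strain, age nor sex of the mice, nor how many mice stand behind a section.

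The stroma spots were chosen from measured values. A spot had to hold at least 1000 UMIs and under 1% of its UMIs in 5 skeletal muscle genes (Acta1, Ckm, Mylpf, Tnnt3 and Tnni2), and the 50 spots with the highest share of UMIs in Dcn, Lum, Col1a2, Pdgfra and Pdgfrb were then taken from each section. In the oral section 216 of 430 spots passed both limits, and 149 failed the muscle limit. The facial section had 1071 of 1141 spots that passed, and 25 that failed the muscle limit. The chosen share of the passing spots was therefore 23.1% in the oral and 4.67% in the facial section. The 5-gene share, called the score, had a lowest, median and highest value of 0.657%, 0.983% and 1.94% in the chosen oral spots and 1.51%, 1.73% and 2.27% in the chosen facial spots. The first spot left outside had a score of 0.652% in the oral and 1.51% in the facial section. The 2 sets thus differed in how rich in fibroblast transcripts they were, since 9 of the 50 oral spots reached the lowest facial score. Of the facial spots that passed, 350 scored at or above the lowest oral spot, and the facial values below were therefore also taken from 50 facial spots matched to the oral ones on score.

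**Figure D1:**
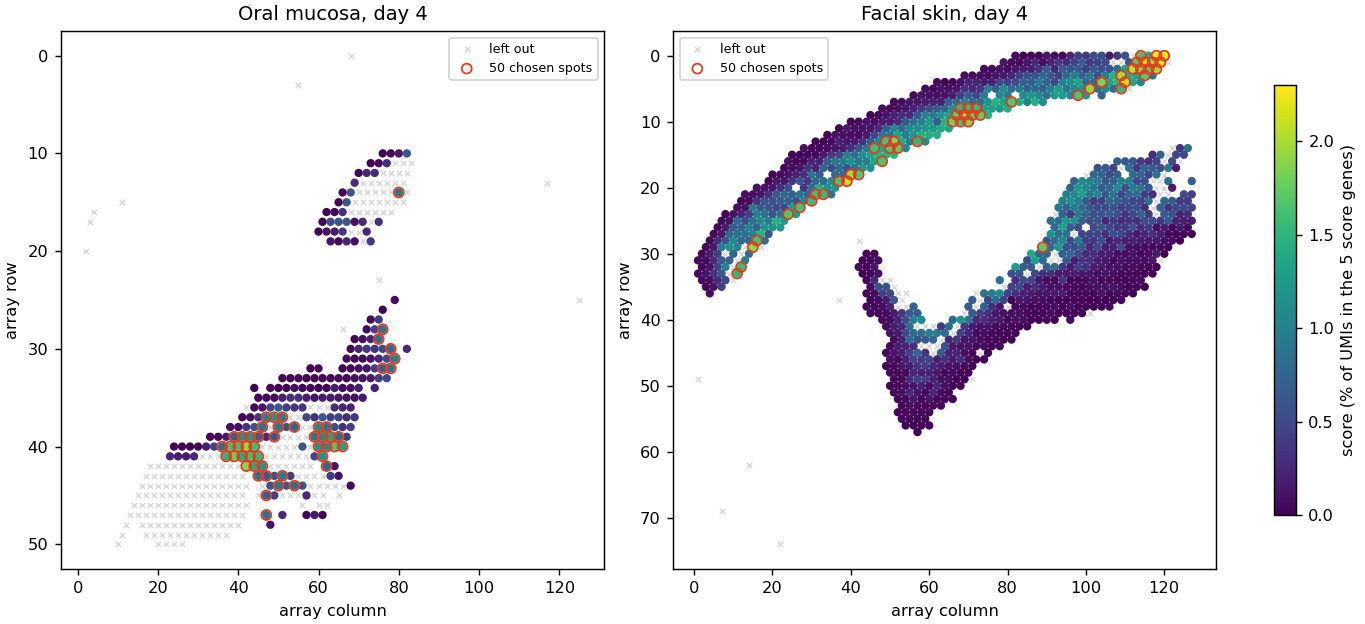
Each point is 1 tissue spot of a day 4 section at its array column and row, coloured by the score (% of UMIs in the 5 score genes), with left-out spots as grey crosses and the 50 chosen spots ringed in red. The chosen oral spots formed 10 touching groups, the largest of 25 spots, and the chosen facial spots formed 18 groups, the largest of 12 spots, most of them along 1 edge of the upper facial strip.

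Depth was low and uneven. The chosen oral spots held 145796 UMIs in all, with a lowest, median and highest spot of 1063, 2730 and 6986 UMIs, and the chosen facial spots held 239908 UMIs, with 1177, 4205 and 14164 UMIs. UMIs were summed over the 50 spots of a section and scaled to a total of 1000000 (counts on that scale are CPM). A floor of 3 UMIs was set in place of a count of 0, which was 20.6 CPM in the oral and 12.5 CPM in the facial set. Folds given as at least a value rest on this floor. It lies under the upper end of the exact 95% interval for a count of 0, which was 25.3 CPM in the oral set. With 1 section in a group there were no replicates and no test was possible. Every interval is an exact 95% interval for counting error only and says nothing about variation between animals. A gene was counted as higher or lower when it differed at least 2-fold and the interval of its ratio lay wholly on 1 side of equality, among genes with at least 50 UMIs over both sets.

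Fibroblasts of the dermis and of the oral lamina propria make the collagens, proteoglycans and elastic fibres of connective tissue, and after a wound some of them take on contractile and matrix-secreting states. Oral mucosa is known for wounds that close with little scar, and skin for wounds that scar. Gas6 is a secreted ligand of the TAM receptor kinases, of which Axl is found on stromal and myeloid cells, and the series is named for signalling between the pair.

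The label was borne out by markers outside the score. The summed share of 22 other fibroblast genes (such as Col1a1, Col3a1, Fbln1 and Sparc) was 3.60% of UMIs in the chosen oral spots against 0.632% in the other oral spots that passed, and 5.93% against 1.06% in facial skin. These spots also held transcripts of other cells. Salivary gland genes such as Muc5b, a secreted mucin, made up 1.71% of the UMIs of the oral set, with a lowest, median and highest spot of 0%, 1.10% and 10.7%, and 12 of their 13 genes were at 0 in the facial set. In the other oral spots that passed the gland share was 0.525%, so the chosen oral spots were richer in gland as well as in fibroblast transcripts. Their summed gland share also exceeded that of the 5 score genes, at 1.10%. Oral suprabasal epithelium genes such as Krt13 made up 0.768% of the oral set against 6.24% in the other oral spots. Genes of cornifying epidermis made up 0.712% of the facial set against 5.35% in the other facial spots. In bulk values of this kind, fewer cells of a type and less RNA per cell cannot be told apart.

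Of 1420 genes with enough UMIs, 122 were higher in the oral stroma spots (8.59%) and 195 were lower (13.7%). The median log2 ratio of oral over facial CPM, with 10 CPM added to both sides, was -0.07 over all of these genes. Lower in the oral set were collagens, markers of fascial and adventitial fibroblasts, and interferon-stimulated genes. Higher in the oral set were single matrix and signalling genes, among them Eln, Acta2, Gdf10 and Thbs1. Where the facial spots were matched on score, 96 genes were higher and 153 lower of 1277, and 192 of the 317 genes were counted again in the same direction. Scaled to the UMIs of the 5 score genes in place of all UMIs, 429 genes were higher and 83 lower, since the oral spots held fewer score-gene UMIs and the all-gene median shifted by 0.66. On that scale the medians were -0.35 for fibrillar collagens (2 of 12 lower), -0.59 for fascial and adventitial markers and -2.02 for interferon-stimulated genes.

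**Figure D2:**
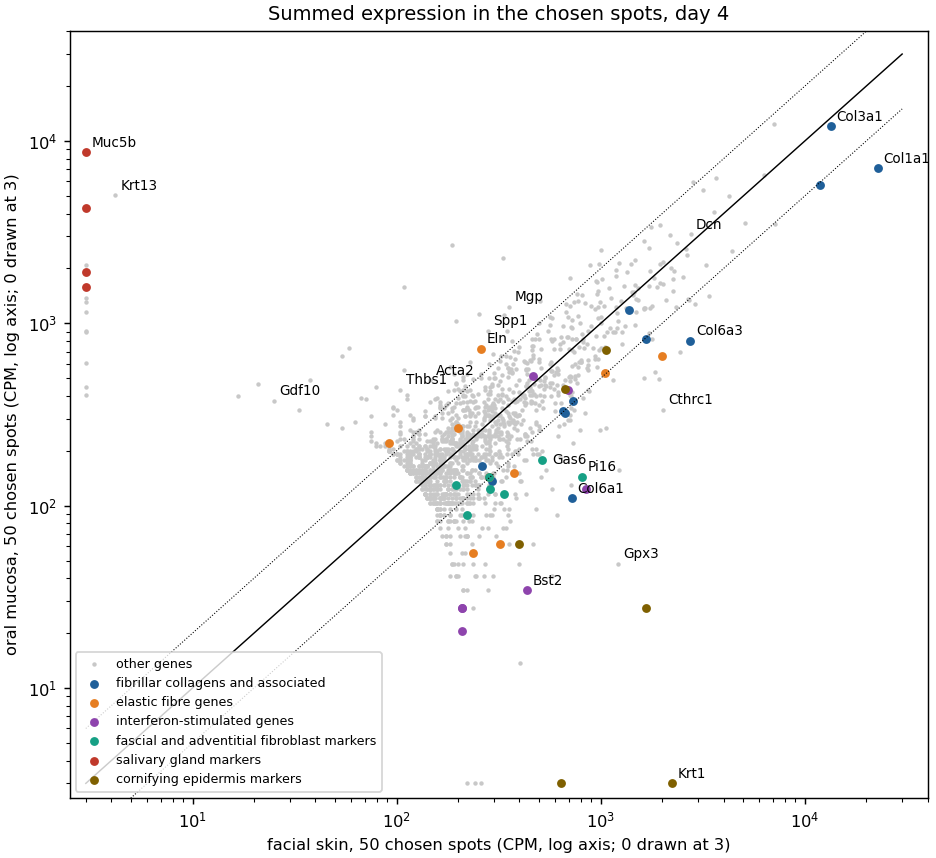
Each point is 1 of the 1420 genes, with the summed CPM of the 50 chosen facial spots on the x axis and of the 50 chosen oral spots on the y axis (log axes, 0 drawn at 3 CPM). The solid line marks equality and the dotted lines a 2-fold difference. Col3a1 lies near equality while Col1a1, Col6a1 and Col6a3 lie below the lower dotted line.

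Interferon-stimulated genes, the antiviral and antigen-processing set that cells switch on after interferon, gave the lowest median of the pathway lists. Of 20 listed genes 7 had enough UMIs, 5 of these were lower and 0 higher in the oral stroma, and the median log2 ratio was -2.54. Irf7, Ifit1 and Oasl2 met the minimum only through their facial UMIs, so their direction and the median are not independent of that filter. Summed without the filter, the 20 genes were at 1708 CPM in the oral and 4339 CPM in the facial set. The promoters of 3 members are shown because the members divided in the data. They were searched on both strands for the letters GAAANNGAAA, the core of the element that interferon-regulatory factors bind, in RefSeq windows of GRCm38.p6 from 250 bases before to 50 after each gene's start. Capitals mark a match, the strand is that of the gene, and overlapping matches in Bst2 run together. The printed stretch of 60 bases lies at chr19:34640760-34640819 on the plus strand for Ifit1, at chr8:71537568-71537627 on the minus strand for Bst2 and at chr7:140955973-140956032 on the minus strand for Ifitm2.
Ifit1: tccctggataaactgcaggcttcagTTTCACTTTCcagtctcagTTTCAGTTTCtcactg
Bst2: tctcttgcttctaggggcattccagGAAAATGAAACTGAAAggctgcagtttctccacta
Ifitm2: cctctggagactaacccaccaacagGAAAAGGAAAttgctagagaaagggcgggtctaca
Such a match was present in 3.44% of all 32851 windows. Counted by gene, with a match in any of its windows, it was present in 3.99% of all 27025 genes. By the same count it was present in 11 of the 17 listed interferon-stimulated genes that had an entry, and in 0 of the 13 fibrillar collagen genes with an entry. Among the genes lower in the oral stroma, it was present in Ifit1 and Bst2 and not in Irf7 or Oasl2, while Ifitm2 and Ifitm3, which were not lower, had it too. A match is a description of letters and no evidence of binding.

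Bst2, a membrane protein that tethers budding viruses, was measured at 34.3 CPM in the oral and 438 CPM in the facial spots (log2 ratio -3.67, interval -5.33 to -2.41), from 5 against 105 UMIs. It had a UMI in 4 of the 50 oral spots and in 36 of the 50 facial spots. Ifi27l2a, a small mitochondrial protein of the interferon response, stood at 123 CPM in the oral and 850.3 CPM in the facial spots (log2 ratio -2.78, interval -3.57 to -2.09). Irf7, the factor that amplifies type I interferon signalling, rested on 3 against 50 UMIs (20.6 against 208 CPM, log2 ratio -3.34, with an interval of -5.67 to -1.71). Ifit1 and Oasl2 each had 4 against 50 UMIs, a log2 ratio of -2.93. The antiviral membrane proteins Ifitm3 and Ifitm2 did not pass, with log2 ratios of -0.68 and 0.14. Within the facial section Bst2 stood at 438 CPM in the chosen and 67.01 CPM in the other spots that passed. The oral section had no such step, with 34.3 CPM in the chosen and 33.99 CPM in the other spots.

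With facial spots matched on score, Bst2 kept a log2 ratio of -3.19 (-4.86 to -1.90) and Ifi27l2a one of -2.49 (-3.29 to -1.78). When oral spots were taken only from those under 0.5% gland UMIs and facial spots were matched to them, Bst2 was at -1.47 (-2.60 to -0.45) and Ifi27l2a at -0.87 (-1.45 to -0.30), neither passed (Bst2 had 44 UMIs, under the minimum), and the list median over its 4 measured members was 0.60. That choice also lowered the median score of both sets to 0.461% in the oral and 0.462% in the facial set. With the gland limit alone 5 of 8 measured members were lower and 1 higher, and the list median was -2.25. Without the facial part of 22 spots it was -1.15, with 2 of 4 members lower. Of 5 measured dendritic and Langerhans cell markers 3 were lower in the 50 highest oral spots and 1 was higher. Cd74, the chaperone of MHC class II, was at 267 against 1059 CPM (log2 ratio -1.98), and H2-Eb1 and H2-Aa, both MHC class II chains, had log2 ratios of -1.82 and -1.34. With both limits 0 of the 3 were lower. The higher member was Epcam, an adhesion protein that epithelial cells also carry, at 226 against 75.03 CPM (log2 ratio 1.59). Macrophage and monocyte markers summed to 0.463% of UMIs in the oral and 0.684% in the facial set, with 2 of 21 and 1 of 21 genes at 0. The part of these cells in the interferon difference was not tested.

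**Figure D3:**
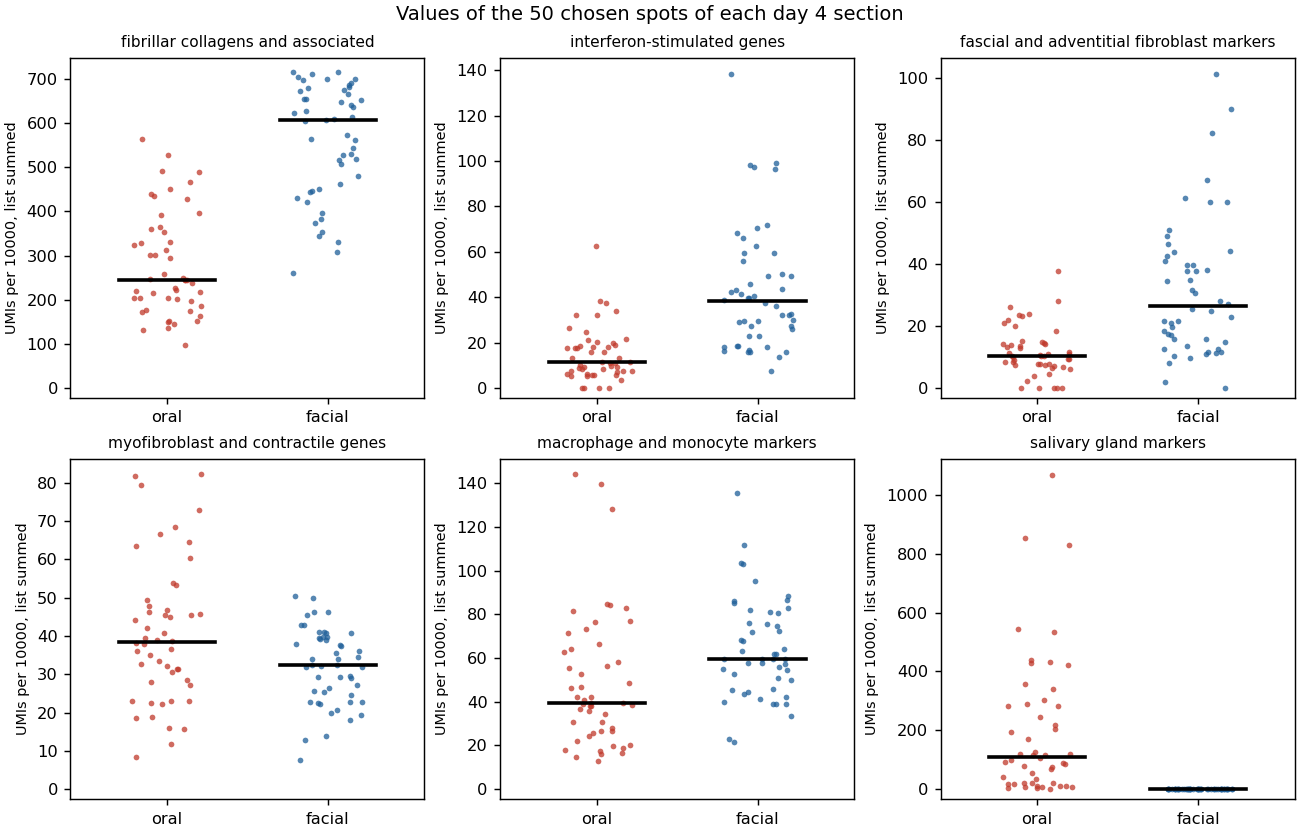
Each point is 1 of the 50 chosen spots of a day 4 section, with the summed UMIs of a gene list per 10000 UMIs of the spot on the y axis and a bar at the median. The fibrillar collagen and interferon-stimulated sums are higher in most facial spots with overlap between the sections, the contractile sums overlap widely, and the salivary gland sum is near 0 in every facial spot.

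Collagen genes were lower in the oral stroma, but not all of them. Of 12 measured fibrillar collagens and associated chains 7 were lower and 0 higher, with a median log2 ratio of -1.03 and all 12 ratios below 0. Summed, the list took a lowest, median and highest share of 0.977%, 2.45% and 5.65% of a spot's UMIs in the oral set and of 2.61%, 6.06% and 7.17% in the facial set, so that the sets overlapped at their ends. Col1a2 is among the score genes, so part of this list entered the choice of spots.

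Col1a1, the main chain of type I collagen, was measured at 7113 CPM in the oral and 22813 CPM in the facial spots (log2 ratio -1.68, interval -1.78 to -1.59). Per 10000 UMIs of a spot its lowest, median and highest values were 11.3, 64.1 and 151 in the oral and 57.9, 245 and 381 in the facial spots. Col3a1, the type III collagen of young granulation tissue and of pliable tissues, was at 12030.5 CPM in the oral and 13443 CPM in the facial spots (log2 ratio -0.16, interval -0.24 to -0.08), a difference that did not pass. Its spot values of 16.9, 91.5 and 353 per 10000 UMIs in the oral set covered those of 22.1, 104 and 235 in the facial set. The pair therefore differed in proportion, a measure that does not depend on how the totals were scaled and that was chosen after the values were seen.

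The oral stroma held 1.69 (1.57 to 1.83) Col3a1 UMIs for each Col1a1 UMI and the facial stroma 0.589 (0.564 to 0.616). Col3a1 exceeded Col1a1 in 38 of the 50 oral spots and in 7 of the 50 facial spots. The oral ratio was 1.92 (1.69 to 2.19) in the 16 chosen spots under 0.5% gland UMIs and 1.57 (1.42 to 1.73) in the 34 others. Across the 4 parts into which each set was divided at its median array row and column, the oral ratio lay between 0.941 and 3.15 and the facial ratio between 0.406 and 0.787. The lowest oral part, with 5 spots, was at 0.941 (0.705 to 1.26), an interval that overlapped those of 3 of the 4 facial parts. These were the highest facial part, at 0.787 (0.738 to 0.839), the part with 3 spots, at 0.643 (0.569 to 0.725), and the part with 2 spots, at 0.534 (0.353 to 0.799). Outside the chosen spots the ratio was 0.985 (0.911 to 1.07) in oral and 0.566 (0.556 to 0.577) in facial tissue. By the same rule the sections labelled unwounded gave 1.57 (1.38 to 1.79) in oral mucosa and 0.971 (0.939 to 1.004) in facial skin.

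Type VI collagen, which forms beaded filaments around cells, was lower in the oral set for 2 chains, Col6a1, at 109.7 CPM in the oral and 725 CPM in the facial spots (log2 ratio -2.72, interval -3.56 to -1.98), and Col6a3, at 802 against 2751 CPM (log2 ratio -1.78). Col6a2, the third common chain, had a log2 ratio of -0.96 and did not reach 2-fold. In the other spots that passed, Col1a1, Col6a1 and Col6a3 had log2 ratios of -1.81, -1.89 and -2.35. Their differences were thus not confined to the chosen stroma spots. Col1a1, Col6a1 and Col6a3 were also lower against the score-matched facial spots, at -1.13, -2.47 and -1.89, and 4 of the 12 list members were lower there, with a median of -0.61. Among enzymes and chaperones that process collagen 3 of 8 were lower, with a median of -0.58. They were Loxl2 (-1.34), Lox (432 against 867 CPM), which crosslink collagen and elastin, and Serpinh1 (-1.12), the collagen chaperone of the endoplasmic reticulum. Against matched facial spots 0 of 7 measured processing genes were lower and 0 higher.

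Of 8 basement membrane genes 1 was higher and 0 lower, 7 ratios were below 0, and the median was -0.33. The 1 was Col18a1, whose fragment is endostatin, at 261 against 117 CPM (log2 ratio 1.16). Of 6 small leucine-rich proteoglycans, which bind collagen fibrils, Ogn (-1.39) and Aspn (-1.23) were lower, while Dcn, a score gene, was at 3086 against 2755 CPM (log2 ratio 0.16) and did not pass. Among 12 measured proteases and inhibitors 4 were lower and 0 higher, with a median of -0.67. These were the sheddase Adam12, the proteoglycanase Adamts15, the collagen-degrading cathepsin Ctsk and the metalloproteinase inhibitor Timp2, with log2 ratios from -1.50 to -1.37. Ctsk remained lower against matched facial spots, at -1.31.

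Elastic fibre genes split in opposite directions. Eln, the elastin precursor, was at 727 CPM in the oral and 258 CPM in the facial spots (log2 ratio 1.49, interval 1.03 to 1.97), while proteins that decorate or assemble the fibre were lower, namely Mfap4 (-2.38), Efemp2 (-2.11), Fbln2 (-1.59) and Efemp1 (-1.31). In all 2 of 9 measured members were higher and 4 lower, with a median of -0.95, and Ltbp3, which binds latent TGF-beta to the matrix, was the other higher member (1.26). Against matched facial spots Eln had a log2 ratio of 1.84, and the list median was 0.02. Eln was uneven within the oral set, at 1510.4 CPM in the part with 13 spots and 199.6 CPM in the part with 20, which is under the facial value. It had a UMI in 29 oral and 15 facial spots. Without the oral part of 13 spots its log2 ratio, with 10 CPM added to both sides, was 0.66 and did not pass. Where spots with 1% or more keratin UMIs were left out, its log2 ratio was 0.36 and did not pass.

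Provisional wound matrix genes also went both ways, with 2 of 11 higher and 2 lower. Thbs1, a matricellular activator of latent TGF-beta, stood at 432 CPM in the oral and 104 CPM in the facial spots (log2 ratio 2.05, interval 1.36 to 2.78), and Spp1, the secreted phosphoprotein osteopontin of macrophages and wound fibroblasts, at 912 CPM in the oral and 279 CPM in the facial spots (log2 ratio 1.71, interval 1.27 to 2.15). Cthrc1, which marks collagen-producing fibroblasts of injured tissue, was at 336 CPM in the oral and 2009 CPM in the facial spots (log2 ratio -2.58, interval -3.03 to -2.15), and Thbs2 had a log2 ratio of -1.06. Cthrc1 took 0, 0.996 and 23.96 of 10000 UMIs in the lowest, median and highest oral spot and 0, 19.1 and 40.98 in the facial spots, so most facial spots lay above most oral ones. The scaffold genes Fn1, Tnc and Postn did not pass (-0.13, 0.82 and -0.65). Spp1 in the oral set came mostly from 1 place, since the part with 20 spots held 126 of its 133 UMIs. Without that part, and with 10 CPM added to both sides, the log2 ratio of Spp1 was -1.73, the opposite direction, and that of Thbs1 was 0.07, near equality, whereas Cthrc1 was lower in the oral set under each alternative choice of spots, scaling and gene minimum that was run.

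Contractile genes gave 2 higher and 1 lower of 11, with a median of 0.29. Acta2, the smooth muscle actin of myofibroblasts and vessel walls, was measured at 487 CPM in the oral and 146 CPM in the facial spots (log2 ratio 1.74, interval 1.14 to 2.37), and Cald1, an actin-binding regulator of contraction, had a log2 ratio of 1.13. Lrrc15, a marker of myofibroblasts that make much collagen, was lower, at 54.9 against 217 CPM (log2 ratio -1.98). Acta2 remained higher against matched facial spots (1.49) and with the gland limit (1.27), and did not pass with both (0.55). Per 10000 UMIs it took 0, 4.34 and 18.2 in the lowest, median and highest oral spot and 0, 1.28 and 7.18 in the facial spots. The sets overlapped in Acta2, with 34 oral and 28 facial spots holding a UMI. The oral stroma had 1.45 (0.993 to 2.13) Acta2 UMIs for each Cthrc1 UMI and the facial stroma 0.0726 (0.0500 to 0.102). Acta2 had already counted as higher and Cthrc1 as lower, so these ratios had to differ. The gap was not particular to the chosen spots, with 8.75 in the other oral and 0.397 in the other facial spots that passed. In the sets labelled unwounded the ratio was 438 in oral mucosa, from 1 Cthrc1 UMI, and 5.07 in facial skin. In the chosen day 4 spots, smooth muscle and pericyte markers summed to 0.0809% of UMIs in the oral and 0.0750% in the facial set, and skeletal muscle markers outside the selection filter to 0.277% and 0.110%. The part of muscle in the Acta2 and Cald1 values was not tested.

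**Figure D4:**
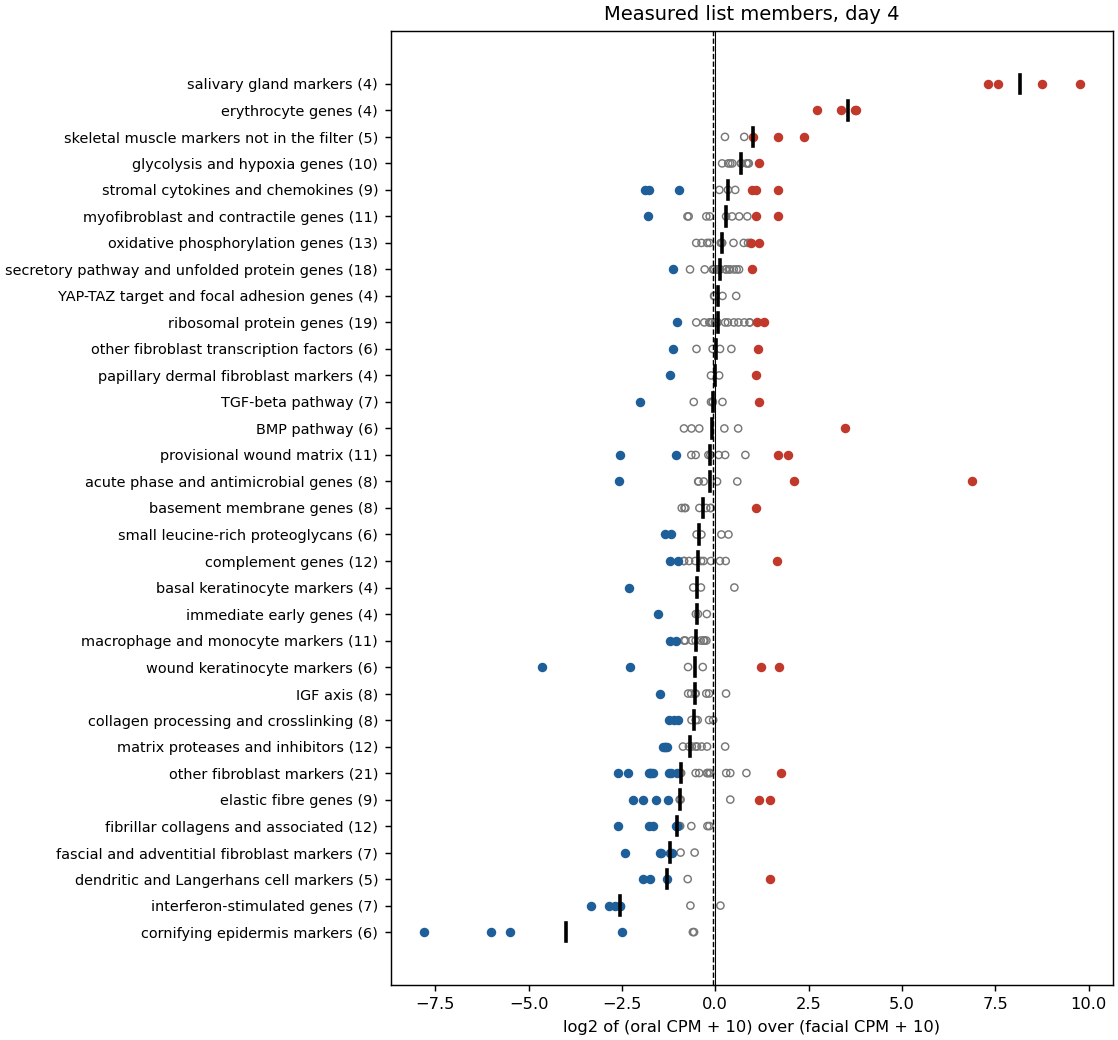
Each row is a gene list with its number of measured members, each point 1 member at its log2 ratio of oral over facial CPM with 10 CPM added to both. Red points are higher and blue points lower in the oral set by at least 2-fold with the interval on 1 side of equality, open points are neither, the black bars are list medians and the dashed line is the median of all 1420 genes (-0.07).

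Markers of fascial and adventitial fibroblasts, the universal-type cells around vessels and in deep connective tissue, were lower as far as they were measured. Of 16 listed genes 7 had enough UMIs, 5 of them were lower and 0 higher, and the median was -1.22. Pi16, a peptidase inhibitor that defines these cells, was at 144 CPM in the oral and 809 CPM in the facial spots (log2 ratio -2.49, interval -3.21 to -1.84). It had a UMI in 9 oral and 33 facial spots. Ly6c1, the scavenger receptor Ackr3, Sema3c and Cd248 had log2 ratios between -1.54 and -1.22. Ly6a and Clec3b, also high in such cells, were at -1.78 and -2.63. In the other spots that passed, Pi16 was at -1.83, Clec3b at -1.73, Sema3c at -1.11 and Cd248 at -0.94. Ackr3 was at -0.38 there, Ly6c1 at -0.14 and Ly6a at 0.27. The adipose markers that lie near these cells were scarce in the oral set, where 8 of 10 were at 0, among them Adipoq and Plin1, and Fabp4 was lower at 219 against 734 CPM (log2 ratio -1.74).

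Pi16 was not even across the facial stroma. It was at 1447 CPM in the part with 22 spots and 214 CPM in the part with 23 spots, with 3 UMIs in the other parts together. The 4 oral parts ran from 18.1 to 301 CPM, so they overlapped the facial part with 23 spots and lay below the one with 22. Without the facial part of 22 spots the log2 ratio of Pi16, with 10 CPM added to both sides, was -0.37 and did not pass. Gpx3, a secreted glutathione peroxidase, showed the same unevenness, at 2074 and 439 CPM. Over all chosen spots Gpx3 was measured at 48.01 CPM in the oral and 1213 CPM in the facial spots (log2 ratio -4.66, interval -5.99 to -3.60) with a UMI in 7 oral and 38 facial spots. Apod, a lipocalin, was at 89.2 against 609 CPM (log2 ratio -2.77). In contrast Cthrc1 was 2653 CPM in the facial part with 23 spots and 1422 CPM in the part with 22, and Col1a1 27109 and 18409 CPM. The facial stroma thus held an area richer in Pi16 and Gpx3 and an area richer in Col1a1 and Cthrc1, and the value over the whole oral set lay below both for each of the 4 genes.

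Other fibroblast classes gave few measured genes. Among 4 papillary dermal markers Ntn1, a guidance ligand, was lower (-1.28) and Col18a1 higher. Of 6 measured transcription factors Twist1, a mesenchymal factor, was lower, at 165 against 375 CPM (log2 ratio -1.19), and Nfib, a nuclear factor I protein, higher, at 432 against 192 CPM (log2 ratio 1.17). In the other spots that passed Twist1 was at -2.12, and Nfib at -0.78, the opposite direction for Nfib. Of 36 homeobox and patterning factors of the head only Prrx1 had enough UMIs, and it did not pass (-0.10). Of 21 measured fibroblast markers outside the score 9 were lower and 1 higher, 17 ratios were below 0, and the median was -0.91. Mgp, a matrix inhibitor of calcification, was the higher one, at 1235 against 354 CPM (log2 ratio 1.80). Its oral level was 1826 CPM in the 34 chosen spots with gland UMIs at or above 0.5% and 223 CPM in the 16 others, below the facial level of 354 CPM.

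In the TAM family 1 of 2 measured genes passed. Gas6 was at 158 CPM in the oral and 542 CPM in the facial spots (log2 ratio -1.78, interval -2.49 to -1.13), with a UMI in 15 oral and 36 facial spots. Per 10000 UMIs the oral spots ran over 0, 0 and 9.41 and the facial spots over 0, 3.44 and 24.4 (lowest, median and highest), so the sets overlapped. Gas6 was also lower in the other oral spots that passed, at 71.6 against 199 CPM (log2 ratio -1.48, interval -1.78 to -1.18). Its difference was thus not confined to the chosen stroma spots. Axl rested on 14 and 34 UMIs, below the minimum, at 96.02 CPM in the oral and 142 CPM in the facial spots (log2 ratio -0.56, interval -1.57 to 0.37). Pros1, the other TAM ligand, was at 185 against 142 CPM (log2 ratio 0.39) and did not pass, and Mertk and Tyro3 had at most 3 UMIs in either set, too few to compare. Gas6 kept its direction and passed against matched facial spots (-1.83), with oral spots under 0.5% gland UMIs (-1.91), and with both limits together (-1.25). It did not pass where the score was built from 5 other fibroblast genes (-0.83), nor without the facial part of 22 spots, where the log2 ratio with 10 CPM added to both sides was -0.94. There were 1.64 (0.810 to 3.45) Gas6 UMIs for each Axl UMI in the oral and 3.82 (2.60 to 5.75) in the facial stroma, intervals that overlap. In the sets from the sections labelled unwounded Gas6 was at 183 against 503 CPM in oral and facial tissue.

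Gdf10, a TGF-beta family ligand expressed by some fibroblasts, was higher in the oral stroma, at 377 CPM in the oral and 25.01 CPM in the facial spots (log2 ratio 3.91, interval 2.70 to 5.42), from 55 against 6 UMIs, with a UMI in 27 oral and 6 facial spots. Within the oral section it was 20.9-fold higher in the chosen than in the other spots that passed, and it was 424 CPM in the chosen oral spots at or above 0.5% gland UMIs and 298 CPM in those below. Against matched facial spots its log2 ratio was 4.70, and with both limits 3.64, from under 50 UMIs. The other 5 measured BMP pathway genes did not pass. Sfrp4, a secreted Wnt antagonist, was at 508 against 213 CPM (log2 ratio 1.26) and was the 1 of 3 measured Wnt genes that passed, but its sign turned under 4 alternatives. In the TGF-beta list Ltbp3 was higher and the co-receptor Tgfbr3 lower (41.2 against 196 CPM, log2 ratio -2.25), and the other 5 of 7 did not pass. Igfbp6 (-1.56) was the 1 lower gene of 8 on the IGF axis, and among the PDGF and FGF genes only the score gene Pdgfra (-1.01) passed.

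Cytokine and chemokine genes were divided, with 3 higher and 3 lower of 9. The monocyte chemokines Ccl8, at 261 CPM in the oral and 988 CPM in the facial spots (log2 ratio -1.92, interval -2.46 to -1.42), and Ccl7, at 96.02 against 354 CPM (log2 ratio -1.88), were lower, as was the receptor chain Il4ra (-1.04). Higher were the alarmin Il33, at 357 against 163 CPM (log2 ratio 1.13), the neutrophil chemokine Cxcl5, at 658 against 325 CPM (log2 ratio 1.02), and Spp1. Cxcl5 lay in the same oral part as Spp1, at 1415 CPM there and at most 384 CPM in the other 3 parts. S100a8, a calcium-binding protein of neutrophils and stressed epithelium, was highest in the same part, at 1132 against 254 CPM (log2 ratio 2.15) in the whole sets and 2214 CPM in that part. Neutrophil markers summed to 0.281% of UMIs in the oral and 0.150% in the facial set, with 1 of 12 genes at 0 in each (Ly6g), and their part in the Cxcl5 and Spp1 values was not tested.

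Of 12 measured complement genes 2 were lower, and the list median was -0.46. C1qa, made by macrophages, and C1ra, a protease of the classical pathway, were lower, at -1.23 and -1.03. Among 8 acute phase and antimicrobial genes 2 were higher and 1 lower. Lbp, which presents bacterial lipopolysaccharide, was the lower one (27.4 against 213 CPM, log2 ratio -2.95). Ltf, the iron-binding lactoferrin of glands and neutrophils, had 169 UMIs in the oral and 0 in the facial set, at least 92.7-fold higher. Of 3 hyaluronan genes Itih5, a heavy chain that binds hyaluronan, was higher (213 against 83.4 CPM, log2 ratio 1.35).

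Genes of general cell functions gave few members that passed. All 10 measured glycolysis and hypoxia genes had ratios above 0, with a median of 0.69, but only Gapdh passed (679 against 296 CPM, log2 ratio 1.20). Of 13 oxidative phosphorylation genes 2 were higher (Cycs and Sdha), of 18 secretory pathway genes 1 was higher (Xbp1) and 1 lower (Atf4), and of 19 ribosomal genes 2 were higher and 1 lower. Their medians were 0.18, 0.13 and 0.06. Of 25 cell division genes 3 had enough UMIs and 0 passed. Immediate early genes gave 1 lower of 4, Junb, at -1.63.

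Genes of neighbouring tissue gave the largest ratios of all. Muc5b had 1268 UMIs in the oral and 0 in the facial spots, at least 696-fold higher against a floor of 3 UMIs over the facial set, and it was seen in 47 of the 50 oral spots. The salivary proteins Dcpp1 and Dcpp2, which are near-identical copies whose reads may be shared, were at least 344-fold and 126-fold higher. Krt13, the keratin of oral suprabasal epithelium, had 733 UMIs against 1. Krt1, a keratin of cornifying epidermis, had 0 UMIs in the oral and 538 in the facial spots, at least 109-fold lower, and it was seen in all 50 facial spots at 6.29, 25.2 and 76.5 per 10000 UMIs. In the other facial spots that passed, Krt1 was at 13634 CPM. Haemoglobin genes were higher in the oral set, with Hbb-bs at 2689 against 188 CPM (log2 ratio 3.84).

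The gland share of the oral spots was followed through the matrix genes. In the 34 spots at or above 0.5% gland UMIs Hbb-bs was at 3575 CPM and Krt13 at 1826 CPM, against 1172 and 10508 CPM in the 16 spots below it. Both groups of oral spots were below the facial set for Col1a1, at 7368 and 6676 CPM, for Pi16, at 163 and 112 CPM, and for Gas6, at 141 and 186 CPM. Acta2 was above the facial value in both, at 565 and 353 CPM, as was Gdf10. Choosing a new set of 50 oral spots all under 0.5% gland UMIs kept 16 of the first 50 and lowered the median score to 0.461%, and it gave 199 higher and 312 lower genes of 1708. In that set Mgp was lower than in the facial spots (-1.10), whereas Eln (1.13), Acta2 (1.27), Thbs1 (1.61) and Spp1 (1.81) were higher.

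**Figure D5:**
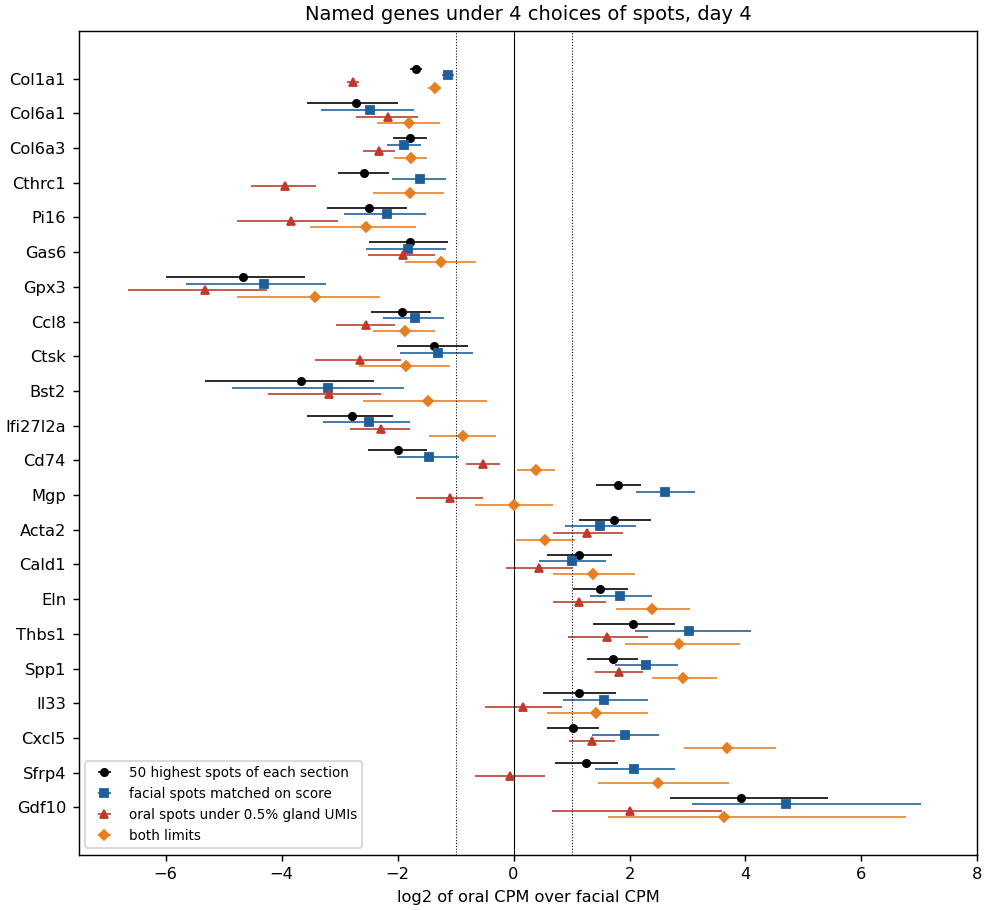
Each gene has the log2 ratio of oral over facial CPM with its 95% counting interval under 4 choices of spots, namely the 50 highest spots of each section, facial spots matched on score, oral spots under 0.5% gland UMIs, and both limits. Dotted lines mark 2-fold. Col6a1, Col6a3, Pi16, Gas6 and Gpx3 stay below the lower line in all 4, Thbs1 and Spp1 stay above the upper line, and Mgp and Sfrp4 cross 0.

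The same rule in the sections labelled unwounded gave spots for a side-by-side view, from other sections. It found hardly any stroma in the unwounded oral section, where 386 spots failed the muscle limit, 137 passed, and the chosen 50 had a median score of 0.239% against 1.10% in facial skin. Of 5809 genes 457 were higher in oral (7.87%) and 1293 lower (22.3%), and with TMM scaling the counts were 683 and 984. All 12 fibrillar collagen genes were lower there (median -2.82), as were 12 of 16 interferon-stimulated genes (median -1.30). Eln was at 321 against 196 CPM, Acta2 at 748 against 338 CPM, Gdf10 at 92.2 against 24.9 CPM, Pi16 at 174 against 816 CPM, Gpx3 at 58.03 against 1225 CPM and Cthrc1 at 1.71 against 66.8 CPM in oral and facial spots. Transcripts of the Y-linked genes Ddx3y and Eif2s3y were found in both unwounded sets (25 to 54 UMIs a gene) and at 0 in both day 4 sets, so day and animal cannot be told apart.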

How the data were processed

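Visium UMI counts per gene and spot were used as deposited by the authors, unnormalized and limited to spots under tissue. Per the file headers the software was Space Ranger 1.3.1. The mm10 build and Seurat are named in the submitters' processing notes, and the annotation release is not given in the sources used here. Spots were chosen and UMIs summed in Python 3.11.15 with numpy 2.4.6, scipy 1.17.1 and pandas 2.3.3. Ratios of summed UMIs carry exact conditional (Clopper-Pearson) 95% intervals, and the procedure was tested on simulated data. The simulated sums held counting error only, without unevenness between spots or areas, so they could not check the intervals against such unevenness. List medians add 10 CPM to both sides. Gene lists and the members were chosen with earlier results of these data known. Genes were named as the 5 score and 5 TAM genes, up to 5 members of each list that counted as higher or lower, and, among genes seen with 100 UMIs or more and a UMI in at least 25 spots, the 15 with the highest and the 15 with the lowest ratio, without mitochondrial, haemoglobin and predicted genes. Col3a1, Col6a2, Fn1, Tnc, Postn, Prrx1, Il4ra, Ifitm2, Ifitm3, Adipoq, Plin1, Ly6g and the sex-linked genes were named after their values were seen. The limits on gland UMIs and the scaling to score genes were added after the data were seen. One result is not reported here.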

Additional observations from a re-analysis of the deposited data

Results flagged for a closer look

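Some genes had opposite directions at day 4 and in the sections labelled unwounded, with both intervals on 1 side of equality. The difference between the days was not tested, since each group had 1 section. The sets labelled unwounded were unlike in content. Neutrophil markers made up 0.177% of UMIs in the facial set labelled unwounded, 0.0029% in the oral one and 0.150% in the facial day 4 set. Oral suprabasal epithelium genes made up 5.85% of the oral set labelled unwounded, and the score genes 0.248%. The part of these cells in the directions below was not tested. Thbs1, the matricellular protein, had a log2 ratio of oral over facial CPM of 2.05 at day 4 and -1.31 unwounded. Spp1, osteopontin, had 1.71 and -3.14, and without the oral part of 20 spots the day 4 values of Spp1 and Thbs1, with 10 CPM added to both sides, were -1.73 and 0.07. Il33, the alarmin, had 1.13 and -1.17. The neutrophil chemokine Cxcl5 had 1.02 and -3.78. Its day 4 value was -0.68 without the oral part of 20 spots and -0.10 with a score from 5 other genes, on the scale with 10 CPM added. S100a8, the calcium-binding protein of neutrophils and epithelium, had 2.15 and -6.27, from 8.53 CPM in the oral and 660.0 CPM in the facial spots labelled unwounded.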

How the results depend on the processing

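No paired analysis was possible because each group had 1 section and the labels give no replicate numbers. The day 4 counts of genes higher and lower in oral spots were 122 and 195. They were 61 and 91 with the 25 highest spots of each section, 242 and 436 with the 100 highest, 327 and 410 with a gene minimum of 20 UMIs, 23 and 36 with a minimum of 200 UMIs, 429 and 83 per score-gene UMI, and 199 and 312 with under 0.5% gland UMIs. Without facial part 2 (23 spots) 110 genes were lower, and without facial part 3 (22 spots) 122 were lower, with fewer genes tested (980 and 900). Without facial part 3, 49.8% of the counted genes were higher against 38.5%. The other alternatives stayed within 1.5 times. Unwounded counts of 457 and 1293 were 235 and 597 with 25 spots, and 2391 were lower with 100 spots.

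Of 115 named genes that passed, 97 kept 1 sign under all 30 alternatives, and 9 (Ccl8, Col6a3, Cthrc1, Fabp4, Gpx3, Hba-a1, Hbb-bs, Krt10 and Krt13) also passed with that sign under all 30. The gene minimum of 200 UMIs alone kept 79 of the 122 named genes from passing again, so the list of 9 depends on abundance too. On the log2 scale with 10 CPM added, Sfrp4 turned to -0.15 with 100 spots, -0.44 under 0.3% muscle UMIs, -0.0463 under 1% keratin UMIs and -0.0515 under 0.5% gland UMIs. With a score from 5 other genes Clec3b was 0.32, Igfbp6 0.0543 and Cxcl5 -0.10. Without oral part 2 Spp1 was -1.73 and Cxcl5 -0.68, without facial part 2 Loxl2 was 0.22, and without facial part 3 Cd52 was 0.41. Under 0.5% gland UMIs Mgp was -1.05, Xbp1 -0.0728 and Krt17 0.32. With the score match and the gland limit together Nfib was -0.40, Igfbp6 0.30, Sdha -0.0935, Rpl10 -0.0087, Ccl21a -0.66, Cd52 0.59, Cd74 0.38, H2-Eb1 0.19, Epcam -1.18 and H2-Aa 0.45. The cause of these changes was not tested. Depth left most listed genes under 50 UMIs.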

Other observations

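Within the 50 oral stroma spots, the part with 20 spots held most UMIs of several inflammatory genes. S100a8 stood at 2214 CPM, Spp1 at 2286 CPM and Cxcl5 at 1415 CPM there. The matricellular gene Thbs1 was at 962 CPM and the contractile gene Acta2, with 42 of its 71 UMIs, at 762 CPM in that part, while Gas6 was at 18.1 CPM and Eln at 199.6 CPM. In the part with 13 spots Krt13 was at 13042 CPM and Eln at 1510.4 CPM. In the facial set, the part with 22 spots had Gas6 at 779 CPM and Ifi27l2a at 1143 CPM, and the part with 23 spots had 332 and 663 CPM.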
